A study of Mus musculus with 24 samples.

Results

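Cyp4b1-ps2 is a transcribed pseudogene on mouse chromosome 4, listed by the authors as the RefSeq transcript NR_033575. It was chosen by its symbol and because its likelihood ratio statistic was the highest in each of the authors' deposited expression tables. It is 1 of 681 transcripts listed for C57BL/6J liver and 1 of 699 listed for A/J liver, and 1 of 877 genes listed in either strain. RNA was sequenced from bulk liver of these inbred strains on 3 diets, with 2 libraries per strain and diet, 12 in all. HF mice ate high fat diet for 16 weeks and Reversal mice for 8 weeks, followed by 8 weeks on control diet. Control mice ate control diet for 16 weeks. The labels give no other allele or agent, and no age or sex. For Reversal samples the diet tag has 16 weeks on control diet, and the 8 weeks of the treatment protocol were used.

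A pseudogene is a copy of a gene that has lost its coding capacity, and some are still transcribed. Cyp4b1-ps2 is named after Cyp4b1, which encodes a cytochrome P450 of family 4 best known from lung. Enzymes of this family hydroxylate fatty acids at or near the methyl end. In rodent liver, the Cyp4a genes are well-known targets of PPAR alpha, a nuclear receptor that fatty acids activate. In the RefSeq gene order of GRCm38, Cyp4b1-ps2 lies among the Cyp4a genes. Cyp4a31 is the gene before it and Cyp4a32 the gene after it, followed by Cyp4b1. Cyp4a10 and Cyp4a14 stand 3 and 4 places before it. Another copy, Cyp4b1-ps1, stands between Cyp4a10 and Cyp4a31. Coordinates are not given, because the submitters' notes name mm9 and the gene table is of GRCm38.

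Each table holds 1 row per transcript and no value per library, and the depth of each library is unknown. A row gives the mean normalised count over the 6 libraries of the strain, the statistic of the test over all 3 diets, and a log2 fold change with its standard error between 2 diets that the table does not name. In these data a positive fold change means a higher level in the numerator diet of that unnamed contrast. Whether both tables use the same contrast is not given either. The tables list only transcripts that passed an adjusted p of 0.05, which were 3.46% of the 19658 transcripts tested in C57BL/6J and 3.39% of the 20591 tested in A/J. A transcript outside the table was either not past that threshold or not tested. In bulk liver, fewer cells of a type and less RNA per cell cannot be told apart.

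In C57BL/6J liver, Cyp4b1-ps2 had a mean normalised count of 399.3 and a statistic of 434.8 (adjusted p 7.38e-91, DESeq2) in the authors' deposited table. The A/J libraries had for it a mean normalised count of 549.4 and a statistic of 842.0 (adjusted p 3.02e-179, DESeq2) in the authors' deposited table. These values chose the transcript and are given as a description. The transcripts with the next highest statistics in C57BL/6J were 3 of Tsku, the gene of a secreted liver protein, at 126.0 to 130.4 in the authors' deposited table, so that the value of Cyp4b1-ps2 was 3.33 times the nearest. The next in A/J were Cyp4a10 at 291.3 and transcripts of the clock gene Per3 at 201.9 and 202.4 in the authors' deposited table, so that Cyp4b1-ps2 stood 2.89 times above the nearest. The median statistic of all listed transcripts was 18.1 in C57BL/6J and 19.8 in A/J.

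**Figure D1:**
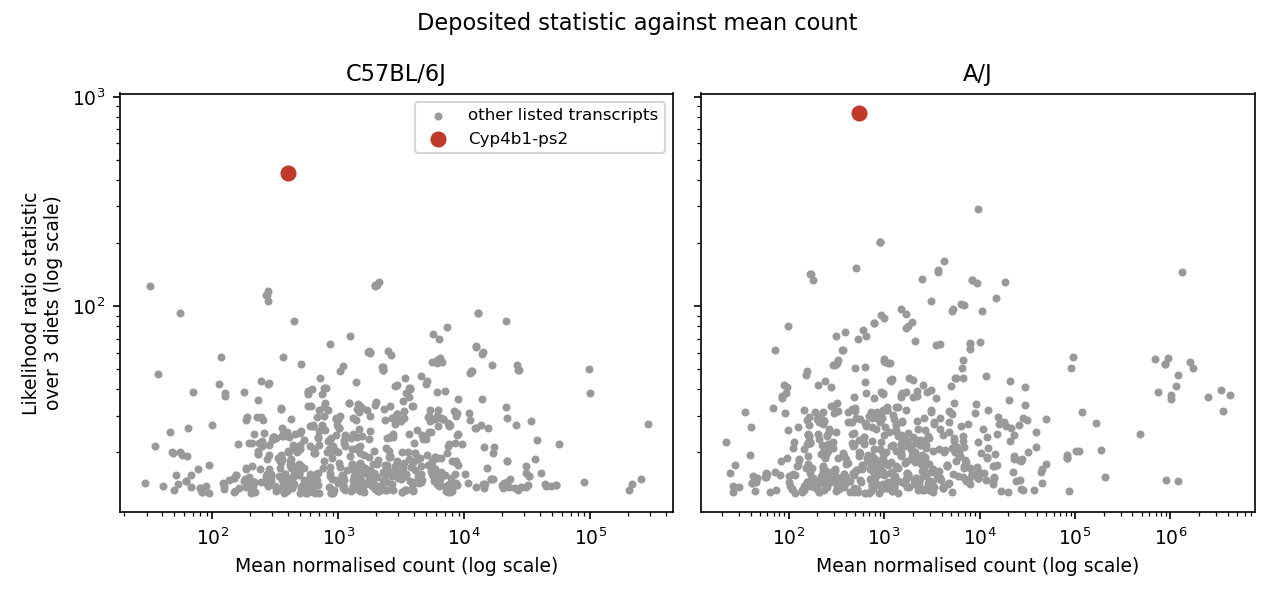
Deposited likelihood ratio statistic over 3 diets (y axis, log scale) against mean normalised count (x axis, log scale) for the listed transcripts of C57BL/6J (left, 681 points) and A/J (right, 699 points), with Cyp4b1-ps2 in red. Cyp4b1-ps2 stands above every other point in each panel, at 434.8 in C57BL/6J and 842.0 in A/J, and at a mean count below the median of the listed transcripts.

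The mean normalised count of Cyp4b1-ps2 ranked 540th of 681 in C57BL/6J and 471st of 699 in A/J, and the medians of all listed transcripts were 1436 and 1104. Counts are not per length, so that these ranks describe the reads behind the test and not the amount of RNA between genes. The 6 listed transcripts nearest to it in mean count had statistics between 13.1 and 23.7 in C57BL/6J and between 14.8 and 28.8 in A/J. The standard error of its log2 fold change was 0.29 in C57BL/6J, within the 0.18 to 0.32 of those 6 transcripts, and 0.23 in A/J, against 0.15 to 0.22 of those 6. Other genes classed as pseudogenes in RefSeq (GRCm38) were listed as well, 3 in C57BL/6J with statistics of 13.3 to 49.6 and 8 in A/J with 12.9 to 31.2. Whether that class holds in A/J was not examined. The number of pseudogenes tested is not known, so that no share can be set beside the 3.46% and 3.39% of all transcripts tested.

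In C57BL/6J liver the log2 fold change of Cyp4b1-ps2 was 0.15 ± 0.29 (SE) in the authors' deposited table, with a 95% interval of -0.42 to 0.71. The numerator and denominator diets thus differed by less than the standard error, and the difference behind the statistic of 434.8 lies with the diet outside the contrast. Of the 681 listed C57BL/6J transcripts, 139 (20.4%) also had a fold change under 1 standard error. In A/J liver the log2 fold change was 5.11 ± 0.23 (SE) in the authors' deposited table, with a 95% interval of 4.65 to 5.56, which is 34.5-fold on the linear scale. By absolute fold change it ranked 2nd of the 699 listed A/J transcripts and 556th of the 681 listed C57BL/6J transcripts. Because the pair of diets is unnamed, the fold changes of the strains are set side by side and their difference was not tested.

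Limits on the diet levels follow from the mean and the fold change, without the standard error or the statistic. They hold if the deposited mean is the mean over 2 libraries for each of 3 diets. They also take the deposited fold change, a fitted value, as the unshrunken ratio of the 2 diet means of normalised counts. In A/J the 3 diet means of Cyp4b1-ps2 sum to 1648. The numerator diet could then reach at most 1602 normalised counts and the denominator diet at most 46.5, whatever the remaining diet, with the fold change taken at its point estimate. At the lower end of its 95% interval the denominator diet could be higher, and a solution with 62.7 exists there. In C57BL/6J the sum was 1198, with limits of 629.1 for the numerator and 568.8 for the denominator diet.

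The levels themselves can be solved from the 4 deposited values. Under the negative binomial model, with equal size factors and unshrunken fold changes, the mean, the fold change, its standard error and the statistic fix the 3 diet means and the dispersion, up to a choice between a low and a high remaining diet. In C57BL/6J there was 1 solution for Cyp4b1-ps2. The implied levels were 58.9 ± 8.3 normalised counts in the numerator diet, 53.3 ± 7.6 in the denominator diet and 1086 ± 117 in the diet outside the contrast (model SE, n = 2 libraries per diet). The remaining diet was thus 18.4 times the numerator and 20.4 times the denominator diet. A solution with a low remaining diet did not exist, since a remaining diet at 0 would have given a statistic of 309.3 only. Of the 681 listed transcripts, 2 had a single solution, 662 had both and 17 had none.

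In A/J both solutions existed for Cyp4b1-ps2. In the solution with a low remaining diet, the implied levels were 1560 ± 136 normalised counts in the numerator diet, 45.2 ± 6.1 in the denominator diet and 43.1 ± 5.9 in the remaining diet (model SE, n = 2 libraries per diet). In the other, they were 862.7 ± 49.5 in the numerator diet, 25.03 ± 3.8 in the denominator diet and 760.3 ± 44.2 in the remaining diet. The first has 1 high diet and the second has 2, and the deposited values do not decide between them. Their dispersions were 0.0146 and 0.00543. The 88 other listed A/J transcripts within 0.5 log2 units of its mean count had implied dispersions with a median of 0.0119 (quartiles 0.00953 and 0.0169), and 60 of them lay below the first value and 0 below the second. These A/J levels rest on the exact fold change. At the lower end of its 95% interval, with the other deposited values kept, the remaining diet had 8.33 or 979.9 normalised counts, and in the second case the numerator diet was below it at 642.6, and at the upper end there was no solution. In C57BL/6J the dispersion was 0.0223, against a median of 0.0173 in 93 such transcripts.

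**Figure D2:**
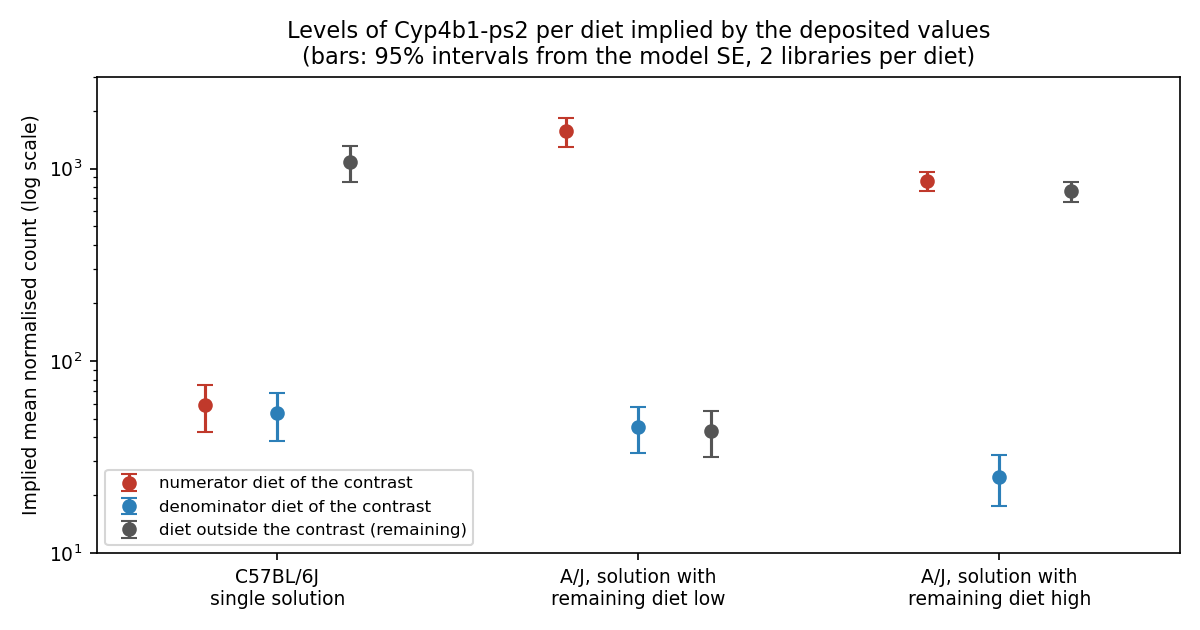
Implied mean normalised count of Cyp4b1-ps2 (y axis, log scale) in the numerator diet (red), the denominator diet (blue) and the diet outside the deposited contrast (grey), for the single C57BL/6J solution and both A/J solutions, with bars of the 95% interval from the model SE for 2 libraries per diet. The diet outside the contrast is high in C57BL/6J at 1086. In A/J the numerator diet is high at 1560 with the diet outside the contrast low at 43.1, or both are high at 862.7 and 760.3. The names of these diets are not in the tables.

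The highest implied level was 20.4 times the lowest in C57BL/6J, and 36.2 or 34.5 times the lowest in A/J. The median of this fold over the transcripts with a solution, taking the smaller where there were 2, was 1.63 in C57BL/6J and 1.69 in A/J. By this fold Cyp4b1-ps2 ranked 5th of 664 transcripts with a solution in C57BL/6J and 4th of 688 in A/J. The highest fold of another transcript was 987.9 in C57BL/6J and 199.6 in A/J. These folds are solved in part from the statistic that chose the transcript and are not independent of that choice. The diet with the highest level cannot be named in either strain. In C57BL/6J it was the diet outside the contrast, and in both A/J solutions it was the numerator of the contrast, except for the solution with a high remaining diet at the lower end of the fold change interval.

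Other genes of the Cyp4 family were listed mostly in A/J. Of 26 other Cyp4 genes, 22 have a curated RefSeq transcript, with 32 such transcripts in all. In A/J, 5 of these genes (6 transcripts, 18.8% of 32) were past the threshold, against 3.39% of all transcripts tested. In C57BL/6J 1 gene (1 transcript, 3.13% of 32) was past it, against 3.46% of all tested. The 32 hold all curated transcripts, tested or not, so that the shares set side by side have unlike denominators. The same holds for the shares of neighbours and of PPAR alpha targets below. All 5 A/J genes had a positive fold change, with a median of 1.30 on the log2 scale. Of all A/J transcripts tested, 1.69% were past the threshold with a positive fold change, while the median of all listed A/J transcripts was 0.00 and 347 of the 699 were positive. The lists were chosen with earlier results known, and members that passed had to differ, so that these counts describe the family.

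The A/J Cyp4 genes past the threshold were mainly neighbours of Cyp4b1-ps2. Cyp4a14, a fatty acid hydroxylase gene, had a log2 fold change of 3.79 ± 0.59 (SE, adjusted p 1.68e-07, DESeq2) in the authors' deposited table. Cyp4a10, another fatty acid hydroxylase gene, had 1.63 ± 0.11 (adjusted p 5.67e-60, DESeq2) in the authors' deposited table. Cyp4a31 and Cyp4a32, on either side of the pseudogene, had 1.30 ± 0.34 and 1.2502 ± 0.16 (adjusted p 0.000938 and 2.24e-18, DESeq2) in the authors' deposited table. The value of Cyp4b1-ps2, 5.11 ± 0.23, was above all 4, and its 95% interval overlapped that of Cyp4a14 and of none of the other 3. Cyp4f17, of a subfamily outside this gene cluster, had 0.01 ± 0.19 (adjusted p 0.0352, DESeq2) in the authors' deposited table. Cyp4b1 itself was listed in neither strain.

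**Figure D3:**
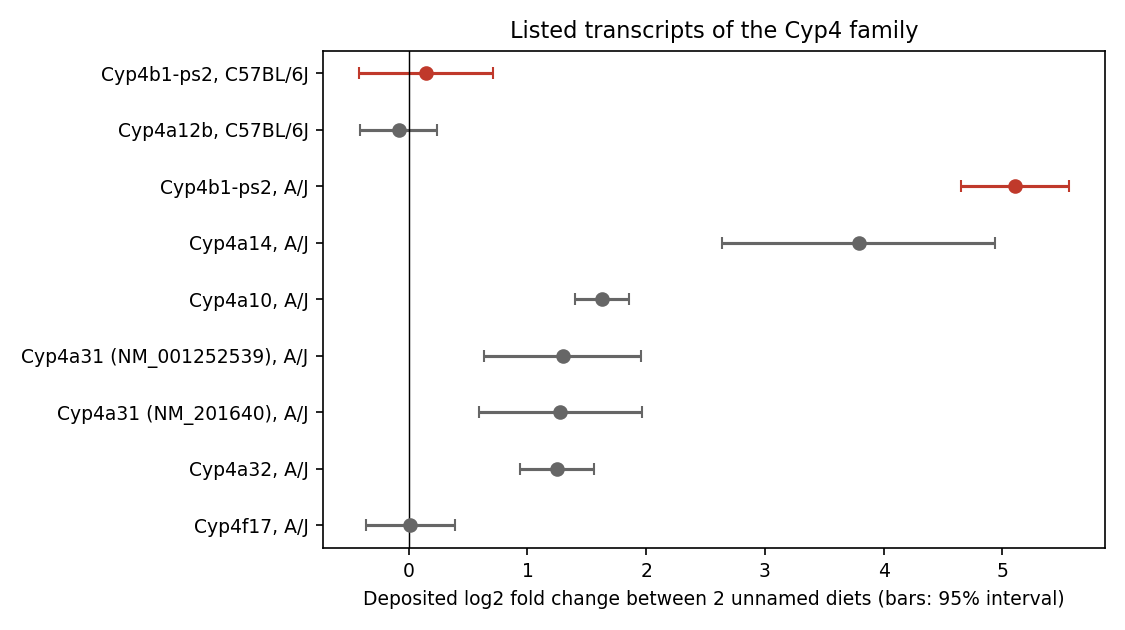
Deposited log2 fold change between 2 unnamed diets (x axis, bars of the 95% interval) for the listed transcripts of Cyp4b1-ps2 (red) and of other Cyp4 genes (grey), with C57BL/6J above A/J. In A/J, Cyp4b1-ps2 stands at 5.11 and the 4 neighbouring Cyp4a genes between 1.2502 and 3.79, while in C57BL/6J Cyp4b1-ps2 and Cyp4a12b stand near 0.

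In C57BL/6J the Cyp4 gene past the threshold was Cyp4a12b, which encodes a fatty acid hydroxylase higher in male than in female mice. It had a log2 fold change of -0.08 ± 0.17 (SE, adjusted p 0.00648, DESeq2) in the authors' deposited table and a statistic of 18.2, against 434.8 for Cyp4b1-ps2. Its implied level in the diet outside the contrast was 5811 or 10232 normalised counts, against 9236 or 6962 in the denominator diet. None of Cyp4a10, Cyp4a14, Cyp4a31 and Cyp4a32 was listed in C57BL/6J, where Cyp4b1-ps2 was. The difference between the strains in these genes was not tested.

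Of the 10 genes on each side of Cyp4b1-ps2, 14 of 20 have a curated RefSeq transcript. In A/J the 4 listed neighbours were Cyp4a10, Cyp4a14, Cyp4a31 and Cyp4a32, all positive, and 5 of the 22 transcripts of these neighbours were past the threshold (22.7%, against 3.39% of all tested). In C57BL/6J the 1 listed neighbour was Cyp4a12b (4.55% of 22, against 3.46%). No gene beyond Cyp4b1 on that side was listed in either strain, among them Efcab14, Atpaf1 and Mknk1. Copies in this cluster resemble each other, and the counting rule for reads shared by copies is not stated in the sources used here. Counts of Cyp4b1-ps2, of the Cyp4a10, Cyp4a31 and Cyp4a32 group and of Cyp4a12b are therefore uncertain in how reads were split.

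With the fold changes as deposited, the implied A/J levels of 3 Cyp4a neighbours resembled those of Cyp4b1-ps2 when the remaining diet was low. The numerator diet was highest, and the denominator and remaining diets were close together. In the solution with a low remaining diet, Cyp4a10 had 17408 normalised counts in the numerator diet, 5636 in the denominator diet and 5586 in the remaining diet. In the same solution Cyp4a32 had 17700 in the numerator diet, 7441 in the denominator diet and 7016 in the remaining diet. For Cyp4a31 the values were 9091 in the numerator diet, 3702 in the denominator diet and 3462 in the remaining diet. In these 3 genes and in Cyp4b1-ps2 the denominator and the remaining diet were within 1.1-fold of each other. That held for 27 of 482 A/J genes with 2 solutions (5.60%), these 4 included. For Cyp4b1-ps2 it did not hold with size factors of the remaining diet at 0.8 times the others, where the denominator diet had 45.4 and the remaining diet 37.0. Nor did it hold at the lower end of its fold change interval, where the denominator diet had 62.7 and the remaining diet 8.33. The interval ends were solved for Cyp4b1-ps2 only, so that the closeness rests on the exact fold changes. Cyp4a14 differed, with 6087 in the numerator diet, 440.5 in the denominator diet and 1082 in the remaining diet. In the solution with a high remaining diet, that diet exceeded the numerator diet in Cyp4a10 (1.29-fold), Cyp4a31 (1.249-fold), Cyp4a32 (1.23-fold) and Cyp4a14 (1.42-fold). For Cyp4b1-ps2 the numerator diet was 1.13 times the remaining one, with 862.7 ± 49.5 against 760.3 ± 44.2 (model SE). At the lower end of its fold change interval the order was reversed, with 642.6 in the numerator diet and 979.9 in the remaining diet. This order therefore does not set Cyp4b1-ps2 apart from its neighbours.

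Targets of PPAR alpha are the wider pathway that holds the Cyp4a genes. Of the 45 genes in the target list, 22 were past the threshold in A/J and all 22 had a positive fold change, with a median of 0.68 on the log2 scale. In 19 of them the 95% interval left out 0. By transcripts this was 28 of 72 (38.9%), against 3.39% of all tested. Some genes, Cd36 most often, had several transcripts among the 28 and so count repeatedly. The lowest adjusted p-values were those of Cyp4a10, Vnn1, Plin2, Crat and Cyp4a32. Vnn1, which encodes a pantetheinase, had 2.51 ± 0.27 (SE), Crat, the carnitine acetyltransferase gene, 0.63 ± 0.12, and Plin2, which coats lipid droplets, 0.47 ± 0.12 in the authors' deposited table. The fold change of Cyp4b1-ps2 was above that of every listed target, the highest of which was Cyp4a14.

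In C57BL/6J, 5 of the 45 PPAR alpha targets were past the threshold, by transcripts 9 of 72 (12.5%, against 3.46% of all tested). Mgll and Me1 each had more than 1 transcript among the 9, so that the share by transcripts counts them repeatedly. Of these 5 genes, 3 had a fold change under 1 standard error, as Cyp4b1-ps2 did. These were Me1, the malic enzyme gene, at 0.00 ± 0.15 (SE), Mgll, the monoglyceride lipase gene, at 0.05 ± 0.12, and Vnn1 at 0.15 ± 0.20 in the authors' deposited table. Acot4, a thioesterase gene, had 0.19 ± 0.18, and the hepatokine gene Fgf21 had -2.97 ± 0.32 in the authors' deposited table. The highest statistic among the 5 was 84.6, for Fgf21, against 434.8 for Cyp4b1-ps2.

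Cyp4b1-ps2 was 1 of 75 named genes listed in both strains. No other Cyp4 gene was among them. Its fold change was under 1 standard error in C57BL/6J and had an interval without 0 in A/J, which held for 11 of the 75 genes. The A/J fold changes of the 10 others ran from -0.72 to 2.51 on the log2 scale, and 5 of them were positive. The reverse, an interval without 0 in C57BL/6J and a fold change under 1 standard error in A/J, held for 8 genes.

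Likeness to Cyp4b1-ps2 was measured as the Euclidean distance of the log2 fold changes in the 2 strains, over the 74 other genes of both tables. The nearest was Vnn1, at a distance of 2.59, with 0.15 ± 0.20 (SE) in C57BL/6J and 2.51 ± 0.27 in A/J in the authors' deposited tables. Next came Fitm1, a gene of lipid droplet formation, at 3.63, with 0.10 ± 0.23 in C57BL/6J and 1.48 ± 0.38 in A/J in the authors' deposited tables. Pck1, the gene of the first committed enzyme of gluconeogenesis, stood at 4.17, with 0.53 ± 0.19 in C57BL/6J and 0.95 ± 0.17 in A/J in the authors' deposited tables. The kinase gene Pim3 stood at 4.24, with 0.85 ± 0.20 in C57BL/6J and 0.92 ± 0.23 in A/J in the authors' deposited tables. Sema5b, a semaphorin gene, stood at 4.25, with 1.14 ± 0.35 in C57BL/6J and 0.98 ± 0.40 in A/J in the authors' deposited tables. Unlike Cyp4b1-ps2, Pck1, Pim3 and Sema5b had a C57BL/6J interval without 0. With the statistics added to the distance, Vnn1 alone stayed among the 5 nearest. The median distance was 5.21. None was near in size, since the A/J fold change of Vnn1, the highest among the 74, was less by more than 2 log2 units than that of Cyp4b1-ps2.

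**Figure D4:**
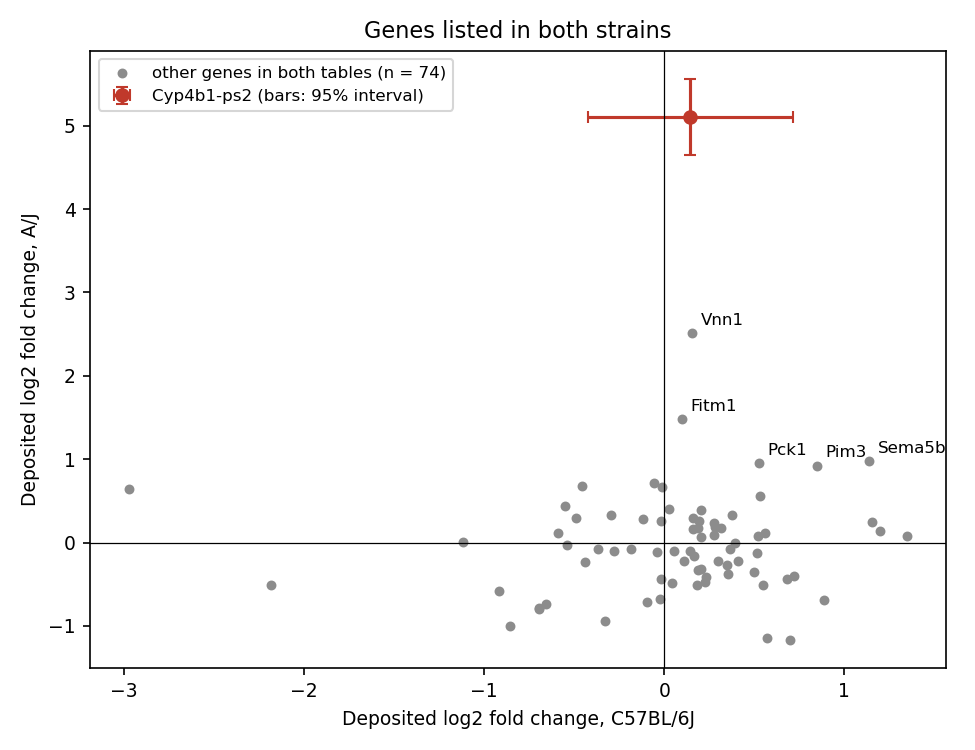
Deposited log2 fold change in A/J (y axis) against that in C57BL/6J (x axis) for the 75 named genes listed in both strains, each between 2 unnamed diets, with Cyp4b1-ps2 in red with bars of the 95% interval and the 5 nearest genes named. Cyp4b1-ps2 stands at 0.15 and 5.11, and Vnn1, the nearest, at 0.15 and 2.51.

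The tissue label could be checked only in part, since the tables hold transcripts past the threshold alone. Of 10 hepatocyte markers, Cps1, Hnf4a and Apoa1 were listed in C57BL/6J, with mean normalised counts of 99665, 14347 and 202218, and Cps1 in A/J with 96337. Their log2 fold changes went both ways, at 0.30 ± 0.11 (SE) for Cps1, -0.35 ± 0.10 for Hnf4a and -0.44 ± 0.16 for Apoa1 in C57BL/6J, and -0.23 ± 0.10 for Cps1 in A/J (adjusted p 1.82e-10, DESeq2), in the authors' deposited tables. Markers of other cell types were nearly all outside the tables. Listed were Cfd, 1 of 4 adipocyte markers, in C57BL/6J, with 124.9 normalised counts and a log2 fold change of 0.56 ± 0.41 (SE), and Marco, 1 of 6 macrophage markers, in A/J, with 99.8 and 1.09 ± 0.41 in the authors' deposited tables. None of 5 stellate cell, 5 endothelial and 5 cholangiocyte markers was listed in either strain. Of all transcripts tested, 3.46% were listed in C57BL/6J and 3.39% in A/J, so that absence says little for lists this short. The part of these markers in the values of Cyp4b1-ps2 was not tested.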

How the data were processed

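Bulk liver RNA of 12 libraries was analysed here as 2 deposited tables, 1 per strain; the strain of each is known from its name. Bowtie2, TopHat, DESeq2 and mm9 are named in the submitters' processing notes, without version or role. Per the file headers, the columns are DESeq2 results. The deposited mean is a signal, the counts divided by size factors and averaged over libraries. The authors' log2 fold change and its standard error compare 2 unnamed diets. The deposited score is a likelihood ratio statistic; the deposited p-value follows from it by chi-square at 2 degrees of freedom. How many transcripts were tested follows from p and adjusted p. Symbols came from RefSeq (GRCm38), for 675 of 681 and 690 of 699 transcripts, and a gene was represented by its transcript with the smallest p.

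No test was run, since the tables hold no libraries and the statistic chose the transcript. The labels do not say that libraries came from separate animals, so that p-values may measure technical spread. Diet levels were solved numerically (scipy 1.17.1), after testing on simulated data. The simulated folds over the denominator diet stayed well below the largest solved for Cyp4b1-ps2, 20.4 in C57BL/6J and 34.5 in A/J. Folds of that size over the denominator diet were thus not covered by the simulated data. The solution nearest the simulated level was scored, so the choice between solutions was not tested. Named genes were called Cyp4 genes and neighbours, the 5 PPAR alpha targets with the smallest adjusted p, the next 3 statistics and the 5 nearest patterns; the cell type markers came from a list of their own, and Efcab14, Atpaf1 and Mknk1 lie outside these rules. Members and lists were chosen with earlier results of these data known. Alternatives were other rankings, thresholds, size factors and distances. Open chromatin peaks are in mm9 and were not used here.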

Additional observations from a re-analysis of the deposited data

How the results depend on the processing

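The first place of Cyp4b1-ps2 by statistic was fixed by the choice of the transcript, also with 1 transcript per gene. Ranked by absolute log2 fold change it stood at 556 in C57BL/6J and 2 in A/J, and ranked by fold change over SE at 603 in C57BL/6J and still first in A/J. Counts of called Cyp4 genes, neighbours and PPAR alpha targets stayed within 1.5 times at an adjusted p threshold of 0.01. With size factors of the diet outside the contrast set higher or lower than the others (0.8 times at the low end), the implied levels moved by less than the model spread of a library. With the fold change at the lower end of its 95% interval, a setting chosen after the data were seen, that diet had in A/J 8.33 in place of 43.1, or 979.9 in place of 760.3, normalised counts; at the upper end there was no A/J solution, so the A/J levels rest on the exact fold change. The C57BL/6J level lay between 1081 and 1086 at both ends. With the statistics added to the distance, 1 of the 5 nearest genes was shared, Vnn1. No paired analysis was possible because the tables hold no values per library, and for the same reason leaving out a replicate, other normalizations and low-count filters were not run. Depth per library is unknown.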
